A study of Mus musculus with 23 samples.

Results

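The genes described here are 10 markers of skeletal muscle, read in medullary thymic epithelial cells (mTECs) of mice with and without Aire. They are the transcription factor genes Myog, Myod1 and Myf6, the myosin heavy chain genes Myh3 and Myh8, the actin genes Acta1 and Actc1, and Ttn, Ryr1 and Ckm. The members are a fixed list of names, chosen with earlier results of these data known, so their counts are not independent of the data. All 10 were found among the 53402 gene identifiers counted. A filter on low counts left 19310 genes for the test, among them 8 of the 10 members, while Myod1 and Myf6 were too low to pass.

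mTECs line the thymic medulla and display, to developing T cells, proteins that are otherwise made in peripheral tissues. Aire is the nuclear regulator known for switching on many such genes in mTECs. Some mTECs take on much of the programme of a peripheral cell type and are called mimetic cells, and the muscle mimetic kind is known for Myog and for proteins of the contractile apparatus. In muscle, Myod1, Myog and Myf6 encode basic helix-loop-helix factors that bind DNA and turn myoblasts into fibres. Sarcomeres, the contractile units, are built of thick filaments of myosin and thin filaments of actin held in register by titin, and a voltage signal is passed to the calcium store through the channel encoded by Ryr1.

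The study sequenced total RNA of 23 mTEC libraries from C57BL/6 mice. The sorted cells lacked DAPI, CD45 and Ly51 staining and carried EpCAM, and a gate on MHC class II split them into a high population (mTEChi) and a low one (mTEClo). WT mTEClo had 8 libraries (age 4 weeks in 5, age 5 weeks in 3), and WT mTEChi had 7 (age 4 weeks in 2, age 5 weeks in 5). The Aire KO groups, mTEClo and mTEChi, had 4 libraries each, 2 of 5 weeks and 2 of 6 weeks, all male, whereas 5 of 8 and 5 of 7 WT libraries were male. The labels give neither the Aire allele nor whether libraries of a group came from separate animals, so p-values measure the spread between these libraries, which may be technical. Cells were sorted for epithelium and not for muscle mimetic cells, so in these bulk libraries fewer cells of a type and less RNA per cell cannot be told apart.

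Library totals ran from 1602125 to 3938588 counts over the 23 libraries, and a floor of 3 counts over a group equals 0.122 CPM in WT mTEClo, 0.275 in KO mTEClo, 0.161 in WT mTEChi and 0.299 in KO mTEChi, which covers counting error only. CPM is the usual count of a gene relative to its library's total, with totals adjusted by TMM factors. Aire was at 753 to 921 CPM in WT mTEChi against 17.1 to 39.3 CPM in KO mTEChi, and at 19.6 to 128 CPM in WT mTEClo against 0 to 7.58 CPM in KO mTEClo. Epcam stood at 202 to 324 CPM over the 4 groups. There were 6 libraries without a single count of a mitochondrially encoded gene, all 4 of KO mTEChi and replicates 3 and 4 of KO mTEClo. In KO mTEClo those 2 libraries were also the ones of 6 weeks, and replicates 1 and 2, of 5 weeks, were below 2000000 counts. Age, depth and missing mitochondrial counts cannot be told apart within KO mTEClo, nor can missing mitochondrial counts and genotype within mTEChi. A fit with a term for those 6 libraries was chosen after seeing the data. It is given where it changes a call of a member or ends a printed KO call of another gene named. Other alternatives that change a call are given for the members, by number or by example. All KO mTEChi libraries carry that term, and with it Aire itself did not pass in KO mTEChi (log2 0.09 in place of -4.87, edgeR adjusted p = 0.96). A call that ended with the term in mTEChi thus does not show that KO had no effect.

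Promoter sequence is shown for 5 members that moved in different directions, to let their start regions be compared. RefSeq promoters of GRCm38.p6 were found for 8 of the 10 members, Myod1 and Myf6 being the others. Each line gives the 250 bases before the start site, 5′ to 3′ on the gene's strand. Capitals mark an E-box (CANNTG, bound by factors of the Myog family), a CArG box (bound by serum response factor) or a MEF2 site, each searched on both strands.
Myog, chr1:134289754-134290003, forward strand: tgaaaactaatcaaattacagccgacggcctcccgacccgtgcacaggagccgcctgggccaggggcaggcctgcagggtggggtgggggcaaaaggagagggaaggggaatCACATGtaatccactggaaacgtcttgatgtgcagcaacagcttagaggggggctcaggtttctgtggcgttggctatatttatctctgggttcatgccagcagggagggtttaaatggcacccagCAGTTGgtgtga
Acta1, chr8:123894776-123895025, reverse strand: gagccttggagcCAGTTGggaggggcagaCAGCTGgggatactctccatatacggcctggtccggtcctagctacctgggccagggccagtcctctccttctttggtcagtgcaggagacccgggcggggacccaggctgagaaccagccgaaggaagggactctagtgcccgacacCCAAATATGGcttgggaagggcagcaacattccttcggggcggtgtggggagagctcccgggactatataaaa
Actc1, chr2:114052876-114053125, reverse strand: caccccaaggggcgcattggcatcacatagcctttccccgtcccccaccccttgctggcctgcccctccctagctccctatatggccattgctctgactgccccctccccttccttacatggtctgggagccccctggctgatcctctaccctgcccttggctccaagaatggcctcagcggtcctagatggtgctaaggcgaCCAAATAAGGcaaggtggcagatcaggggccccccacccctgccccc
Myh3, chr11:67078050-67078299, forward strand: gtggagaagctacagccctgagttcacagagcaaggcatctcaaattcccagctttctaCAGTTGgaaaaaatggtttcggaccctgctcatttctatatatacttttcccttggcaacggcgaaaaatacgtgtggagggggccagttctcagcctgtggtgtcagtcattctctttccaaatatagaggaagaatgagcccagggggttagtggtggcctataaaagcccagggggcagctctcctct
Myh8, chr11:67276874-67277123, forward strand: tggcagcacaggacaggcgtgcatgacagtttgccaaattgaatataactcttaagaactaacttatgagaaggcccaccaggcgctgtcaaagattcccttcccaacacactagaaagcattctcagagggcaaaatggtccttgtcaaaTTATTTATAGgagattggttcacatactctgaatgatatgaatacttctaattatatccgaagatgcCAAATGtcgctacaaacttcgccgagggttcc

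Over all 32851 promoters of the table, 66.2% held at least 1 E-box in this window, 1.47% a CArG box and 2.92% a MEF2 site. Both actin promoters held 1 CArG box, 73 to 64 bases before the start in Acta1 and 47 to 38 bases before it in Actc1. Acta1 also had 2 E-boxes, and Actc1 had 0. Myog had 2 E-boxes and Myh3 had 1. Myh8 had 1 E-box and 1 MEF2 site, as had Ttn, while Ckm had 1 E-box and Ryr1 had no match to any of these motifs. A match is only a run of letters and was not tested as a binding site. Distances and matches depend on the start site used, here that of RefSeq. The windows of Actc1 and Ckm lie inside the GENCODE spans of these genes. Runs that miss a pattern by 1 base are not marked or counted. The run ctatatttat of Myog, for example, misses the MEF2 pattern at its last base, which had to be A or G.

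In KO mTEChi, 6 of the 8 members tested fell, which were Myh3, Myh8, Ryr1, Actc1, Acta1 and Ttn, and 0 rose. The shares over all genes tested were 28.0% lower and 25.7% higher. At an unadjusted p under 0.05 edgeR also gave 6 lower and 0 higher, and DESeq2 gave 7 lower and 0 higher at an adjusted p. With the term for the 6 libraries 2 were lower, Myh3 and Ryr1, and 1 was higher, Ttn. In KO mTEClo, Acta1, Ckm and Myog rose, 3 of 8, and 0 fell, where 12.0% of all genes were called higher and 9.69% lower. The unadjusted counts there were 4 higher and 1 lower, and DESeq2 gave 4 and 0. Without replicates 1 and 2 of KO mTEClo the calls were Acta1, higher, and Ttn, lower. A gene is called here at an adjusted p under 0.05 in edgeR's quasi-likelihood test, with Benjamini-Hochberg adjustment over the 19310 genes.

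The gates differed as well, and the members did not move as a block. Within WT, Myh3, Myh8, Ttn and Ckm were higher in mTEChi than in mTEClo, while Myog and Acta1 were lower, so 4 of 8 were called higher and 2 lower. Of all genes, 36.7% were called higher and 33.4% lower in that comparison. Within KO, Myog, Ryr1, Acta1 and Actc1 were lower in mTEChi and Ttn was higher, which is 4 lower and 1 higher of 8. The shares of all genes were 28.0% lower and 29.2% higher. The interaction, which tests whether the KO effect differs between gates, was negative for 7 of 8 members and positive for 0 (edgeR's unadjusted counts were 7 and 0, and DESeq2 gave 8 and 0), where 14.0% of all genes were called lower and 10.8% higher. A negative value means that the change in KO was further down in mTEChi than in mTEClo.

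**Figure D1:**
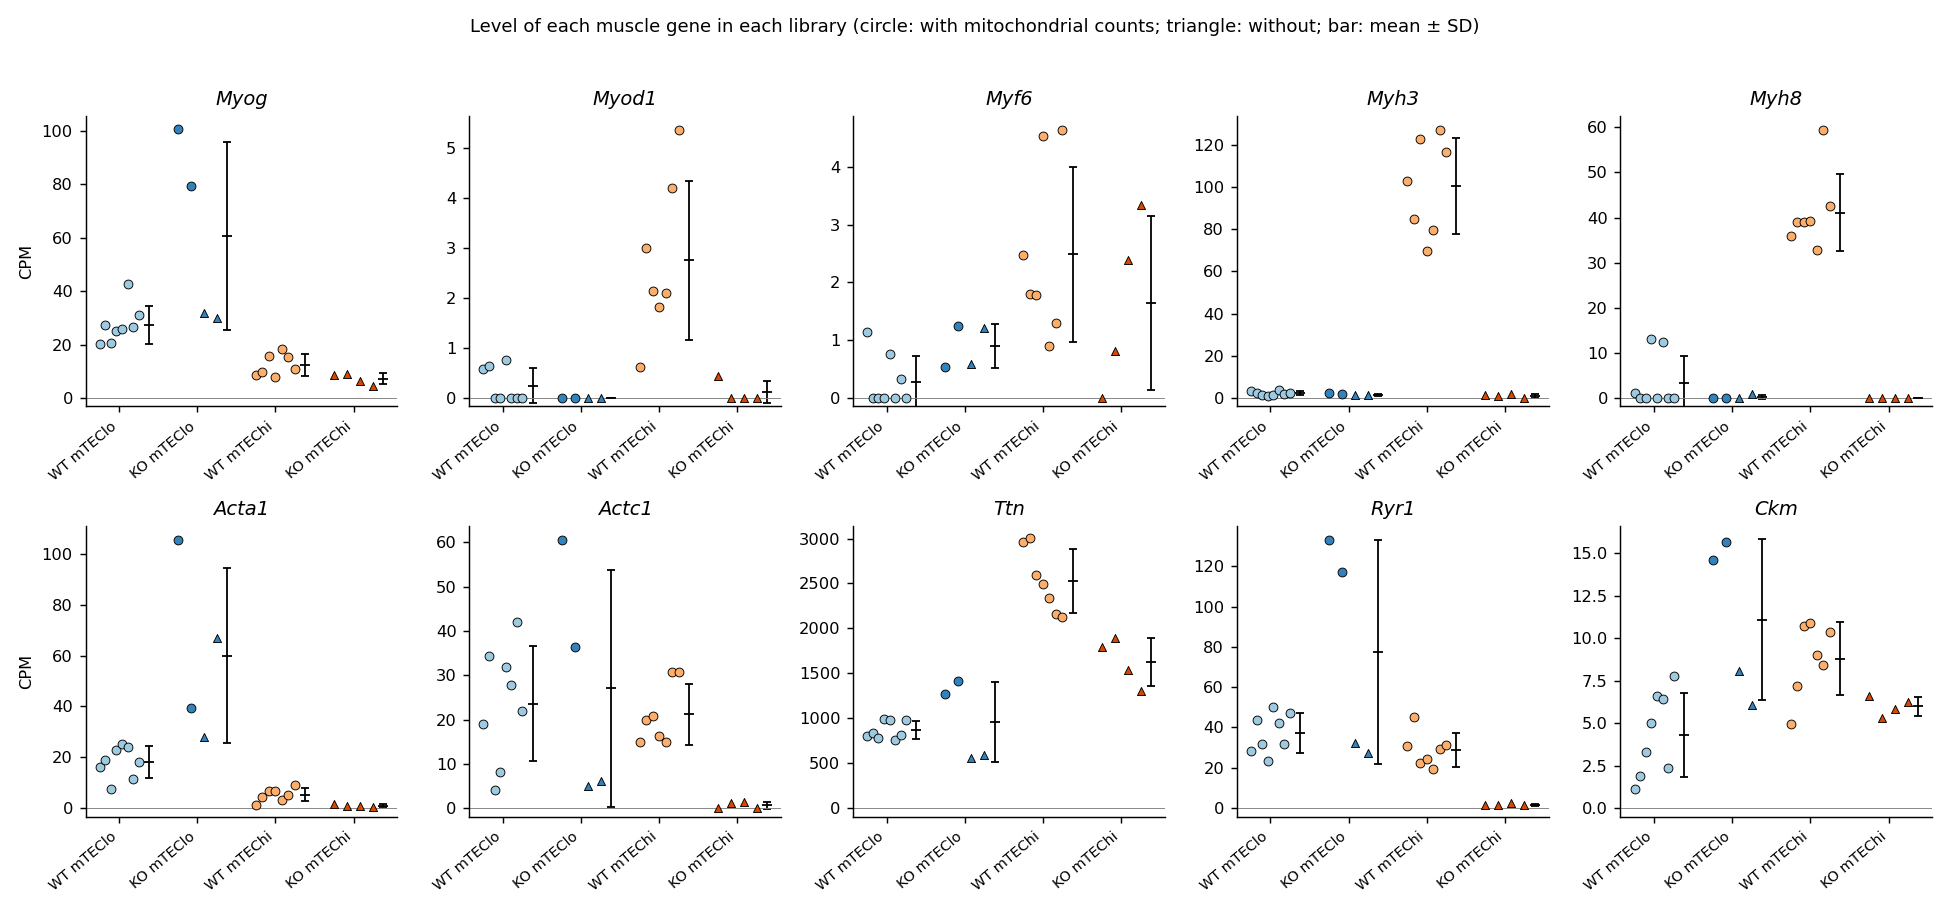
CPM of each of the 10 genes in each of the 23 libraries by group, with the mean and SD beside the points (a bar that reaches below 0 is cut at the axis). Triangles are the 6 libraries without mitochondrial counts. Myh3, Myh8 and Ttn are highest in WT mTEChi, and the 2 circles of KO mTEClo lie above its triangles for Myog, Myh3, Actc1, Ttn, Ryr1 and Ckm.

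Myog (ENSMUSG00000026459, chromosome 1, 134289989 to 134292548, forward strand), the factor that drives myoblasts into fusion and terminal differentiation, was measured in every library. In WT mTEClo its level ran from 20.1 to 42.7 CPM with a median of 26.1, and in WT mTEChi from 7.85 to 18.3 CPM with a median of 10.7. The KO mTEClo libraries stood at 101, 79.5, 31.9 and 30.1 CPM and the KO mTEChi libraries at 8.78, 9.002, 6.50 and 4.60 CPM. The gates did not overlap in either genotype, mTEClo being higher. Replicates 1 and 2 of KO mTEClo were above every WT library, and replicates 3 and 4 were within the WT range.

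The mean of Myog was 27.4 ± 7.15 CPM in WT mTEClo (SD, n = 8) and 60.6 ± 35.2 CPM in KO mTEClo (n = 4), a log2 change of 1.09 ± 0.30 (SE, edgeR adjusted p = 0.01). That call ended without replicate 1 of KO mTEClo (log2 0.71, adjusted p = 0.075) and without replicates 1 and 2 (log2 0.18, adjusted p = 0.63), and in all under 4 of 14 alternatives, which ranged from 3.4e-06 to 0.87. In mTEChi the mean was 12.3 ± 4.09 CPM in WT (n = 7) and 7.22 ± 2.08 CPM in KO (n = 4), a log2 change of -0.80 ± 0.41 that did not pass (edgeR adjusted p = 0.11, 0.0087 to 0.26 over the alternatives). Of those, 3 of 12 called it lower, and with the term for the 6 libraries its sign was positive (log2 0.74, adjusted p = 0.16). Between gates Myog was lower in mTEChi by -1.12 ± 0.27 on the log2 scale in WT (edgeR adjusted p = 0.00087) and by -3.01 ± 0.39 in KO (adjusted p = 4.5e-07). The interaction was -1.89 ± 0.49 (edgeR adjusted p = 0.0058), and it passed under every alternative run.

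Myod1 (ENSMUSG00000009471, chromosome 7, 46376474 to 46379099, forward strand), which commits cells to the muscle lineage, was counted in all 7 WT mTEChi libraries, from 0.620 to 5.36 CPM with a median of 2.14. In KO mTEChi it had 1 count in all, in replicate 1 (0.439 CPM), and the other 3 libraries were listed at 0. WT and KO mTEChi did not overlap in CPM, but the lowest WT library, replicate 1, also had only 1 count (0.620 CPM). The pooled level was 28.6-fold lower in KO (95% counting interval 4.91 to 1150). An exact two-sided permutation test of the means gave p = 0.0121, adjusted to 0.0323 over the 8 such tests of Myod1 and Myf6.

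In mTEClo Myod1 was near its floor. It had 5 counts over the 8 WT libraries, 5 of which were listed at 0, and no count in the 4 KO libraries. WT mTEChi exceeded WT mTEClo by 2.50 CPM in mean (exact permutation p = 0.000466, adjusted p = 0.00186). The KO mTEClo and WT mTEClo libraries gave exact permutation p = 0.418, and the KO gates p = 1, where the levels are at or under the floor.

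Myf6 (ENSMUSG00000035923, chromosome 10, 107492853 to 107494737, reverse strand), also called MRF4, is the regulator known for high levels in mature fibres. It was at 0.900 to 4.64 CPM in WT mTEChi (median 1.80) and at 0, 0.818, 2.40 and 3.34 CPM in KO mTEChi. These groups overlapped over most of their range, and the difference of -0.850 CPM gave exact permutation p = 0.394. WT mTEClo libraries ranged from 0 to 1.15 CPM with 5 of 8 at 0, and KO mTEClo stood at 0.541, 1.25, 0.596 and 1.21 CPM.

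WT mTEChi was above WT mTEClo in Myf6 by 2.21 CPM (exact permutation p = 0.000311, adjusted p = 0.00186). KO mTEClo was above WT mTEClo by 0.620 CPM, with exact permutation p = 0.0424 that did not pass after adjustment (adjusted p = 0.0848). So Myod1 was lower in KO mTEChi by a test that Myf6 did not pass in the same libraries, and the difference between the 2 genes was not tested.

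Myh3 (ENSMUSG00000020908, chromosome 11, 67078300 to 67102291, forward strand) encodes the embryonic myosin heavy chain. It stood at 69.5 to 127 CPM in WT mTEChi, with a median of 103, and at 1.32, 0.818, 1.71 and 0 CPM in KO mTEChi. In mTEClo it was low in both genotypes, from 1.05 to 3.66 CPM in WT (median 2.21) and at 2.17, 1.88, 1.19 and 1.21 CPM in KO. The lowest WT mTEChi library was thus far above every library of the other 3 groups, which overlapped with each other.

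The mean of Myh3 was 100.4 ± 22.8 CPM in WT mTEChi (n = 7) and 0.962 ± 0.738 CPM in KO mTEChi (n = 4), 101-fold lower in pooled counts. The log2 change was -6.73 ± 0.29 (edgeR adjusted p = 2.2e-16) and it passed under every alternative run, at -6.00 with a term for the 6 libraries. The KO mTEChi libraries of 5 weeks and those of 6 weeks were all at or below 1.71 CPM. In mTEClo the log2 change of -0.66 ± 0.42 did not pass (edgeR adjusted p = 0.27). WT mTEChi was 49.2-fold above WT mTEClo (log2 5.52 ± 0.18, edgeR adjusted p = 1.5e-20), whereas the gates in KO did not pass (log2 -0.55 ± 0.57, adjusted p = 0.43). The interaction was -6.07 ± 0.68 (edgeR adjusted p = 1.7e-07).

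Myh8 (ENSMUSG00000055775, chromosome 11, 67277124 to 67308634, forward strand), the perinatal myosin heavy chain gene, lies in the same myosin cluster as Myh3. Its WT mTEChi libraries ran from 32.7 to 59.4 CPM with a median of 39.0, and all 4 KO mTEChi libraries were listed at 0. It was therefore at least 139-fold lower in KO (edgeR adjusted p = 1e-04), a call that ended with the term for the 6 libraries (adjusted p = 0.17, 1.8e-10 to 0.17 over the alternatives). The fitted change was still negative with the term, and its size is not given because all 4 KO mTEChi libraries are at 0. Reads of similar myosin genes can be split between members of the family, which would make the levels of Myh3 and Myh8 uncertain to that extent. How far their sequences match was not examined.

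Within WT mTEClo Myh8 differed widely between libraries. Replicates 4 and 6 stood at 13.1 and 12.5 CPM, replicate 1 at 1.15 CPM, and the other 5 libraries were at 0. KO mTEClo had 0.971 CPM in replicate 4 and 0 in the other 3. The KO change in mTEClo did not pass (edgeR adjusted p = 0.14). WT mTEChi was 11.0-fold above WT mTEClo by pooled counts (edgeR log2 3.52 ± 0.60, adjusted p = 6.5e-05). The interaction did not pass (edgeR adjusted p = 0.34), though it did under 1 of 13 alternatives, DESeq2 (adjusted p = 0.045).

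Acta1 (ENSMUSG00000031972, chromosome 8, 123891769 to 123894751, reverse strand) encodes the actin of adult skeletal thin filaments. WT mTEClo libraries held 7.39 to 25.2 CPM (median 18.5), and KO mTEClo libraries 106, 39.5, 28.0 and 67.0 CPM. Every KO mTEClo library was above every WT mTEClo library. In mTEChi the WT libraries held 1.24 to 8.93 CPM (median 5.16) and the KO libraries 1.76, 0.818, 0.685 and 0.418 CPM, with 1 KO library inside the WT range. Acta1 was the only member called in opposite directions in the 2 gates.

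In mTEClo the mean of Acta1 was 18.01 ± 6.24 CPM in WT (n = 8) and 60.02 ± 34.5 CPM in KO (n = 4), higher by a log2 change of 1.71 ± 0.34 (edgeR adjusted p = 8e-04). It passed under every alternative and every library left out, also with replicates 1 and 2 of KO mTEClo removed (log2 1.40, adjusted p = 0.0053, with 7.2e-05 to 0.021 over the alternatives). In mTEChi its mean was 5.18 ± 2.54 CPM in WT (n = 7) and 0.919 ± 0.582 CPM in KO (n = 4), lower by a log2 change of -2.54 ± 0.76 (edgeR adjusted p = 0.0073), and the call ended with the term for the 6 libraries (log2 -1.93, adjusted p = 0.13, 9.5e-05 to 0.13 over the alternatives). The interaction was -4.25 ± 0.78 (edgeR adjusted p = 0.00028). Acta1 was lower in mTEChi than in mTEClo by -1.73 ± 0.35 in WT (edgeR adjusted p = 0.00012) and by -5.98 ± 0.59 in KO (adjusted p = 5.8e-09).

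Actc1 (ENSMUSG00000068614, chromosome 2, 114047282 to 114053548, reverse strand) encodes cardiac actin, which is also the actin of developing skeletal muscle. WT mTEChi libraries stood at 14.9 to 30.7 CPM (median 19.8), and KO mTEChi libraries at 0, 1.23, 1.37 and 0 CPM. These groups did not overlap. WT mTEClo spread widely, from 4.08 to 42.0 CPM (median 24.8), and KO mTEClo stood at 60.6, 36.3, 5.06 and 6.07 CPM, from the low end of the WT range to above it. Reads shared by similar actin genes could leave the split between Acta1 and Actc1 uncertain, and how far their sequences match was not examined.

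In mTEChi Actc1 fell from a WT mean of 21.2 ± 6.88 CPM (n = 7) to a KO mean of 0.649 ± 0.752 CPM (n = 4), 30.8-fold by pooled counts (log2 -4.78 ± 1.16, edgeR adjusted p = 0.0018). With the term for the 6 libraries it was -1.66 and did not pass (adjusted p = 0.39, 1.4e-08 to 0.39 over the alternatives). In mTEClo the KO change of 0.20 ± 0.65 did not pass (edgeR adjusted p = 0.86), with means of 23.6 ± 13.0 CPM in WT and 27.02 ± 26.7 CPM in KO. The WT gates did not pass either (log2 -0.05 ± 0.51, edgeR adjusted p = 0.94), while in KO mTEChi was lower by -5.03 ± 1.20 (adjusted p = 0.0013), a call lost under 3 of 14 alternatives, such as with the term for the 6 libraries (log2 -2.93, adjusted p = 0.056, 3e-08 to 0.089 over the alternatives). The interaction of -4.99 ± 1.36 passed (edgeR adjusted p = 0.011) but not without replicates 1 and 2 of KO mTEClo (log2 -2.88, adjusted p = 0.12, 1.2e-05 to 0.15 over the alternatives).

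Ttn (ENSMUSG00000051747, chromosome 2, 76703980 to 76982547, reverse strand) encodes titin, the giant spring that spans from the Z disc to the middle of the sarcomere. Its WT mTEChi libraries held 2124 to 3011 CPM (median 2499) and its KO mTEChi libraries 1788, 1894, 1534 and 1302 CPM. WT mTEClo held 761 to 992 CPM (median 823) and KO mTEClo 1269, 1417, 555 and 594 CPM. Every KO mTEChi library was below every WT mTEChi library. In KO mTEClo, replicates 1 and 2 were above all WT libraries and replicates 3 and 4 below all of them.

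In mTEChi the mean of Ttn was 2527 ± 356.5 CPM in WT (n = 7) and 1630 ± 265.5 CPM in KO (n = 4), lower by a log2 change of -0.62 ± 0.21 (edgeR adjusted p = 0.016). This call was not stable, as it ended with age in the fit (log2 -0.19, adjusted p = 0.38) or without replicate 4 of KO mTEChi (log2 -0.52, adjusted p = 0.062), and with the term for the 6 libraries the sign turned (log2 0.61, adjusted p = 0.019, with 6.4e-05 to 0.38 over the alternatives). In mTEClo the means of 868 ± 99.2 CPM (n = 8) and 959 ± 448 CPM (n = 4) gave a log2 change of 0.16 ± 0.21 (edgeR adjusted p = 0.63), which sums KO libraries on both sides of WT. The sign depends on which are kept, with 0.64 from replicates 1 and 2 (adjusted p = 0.0019) and -0.58 from replicates 3 and 4 (adjusted p = 0.0045). The interaction of -0.78 ± 0.28 passed narrowly (edgeR adjusted p = 0.047) and was lost in 14 of 23 fits with 1 library left out and under 7 of 13 other alternatives, with the sign turned under 1 more, the removal of the 6 libraries under 2000000 counts (log2 0.09, adjusted p = 0.74, 6.2e-06 to 0.92 over the alternatives).

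Between gates Ttn was higher in mTEChi in WT (log2 1.55 ± 0.17, edgeR adjusted p = 3.2e-08), 2.80-fold by pooled counts, without overlap. It was higher in KO mTEChi as well (log2 0.77 ± 0.23, edgeR adjusted p = 0.0059), though not against KO mTEClo replicates 1 and 2 alone (log2 0.26, adjusted p = 0.16, 2.4e-09 to 0.16 over the alternatives). Another annotated gene, Gm13938, covers 0.39% of the exonic bases of Ttn.

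Ryr1 (ENSMUSG00000030592, chromosome 7, 29003344 to 29125179, reverse strand) encodes the calcium release channel of the sarcoplasmic reticulum, the calcium store of the fibre. It was at 19.2 to 45.0 CPM in WT mTEChi (median 29.4) and at 1.32, 1.64, 2.40 and 1.67 CPM in KO mTEChi. In WT mTEClo it was at 23.3 to 50.1 CPM (median 37.0), and in KO mTEClo at 133, 117, 32.5 and 27.2 CPM. All KO mTEChi libraries lay far below those of the other 3 groups. Replicates 3 and 4 of KO mTEClo were within the WT range, and replicates 1 and 2 were above it.

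In mTEChi Ryr1 fell from a WT mean of 28.95 ± 8.44 CPM (n = 7) to a KO mean of 1.76 ± 0.456 CPM (n = 4), 15.3-fold by pooled counts (log2 -3.94 ± 0.66, edgeR adjusted p = 4.3e-05). The call held under every alternative and every library left out, at -1.86 with the term for the 6 libraries (adjusted p = 0.0061). In mTEClo the means were 37.3 ± 9.80 CPM (n = 8) and 77.5 ± 55.5 CPM (n = 4), and the log2 change of 0.99 ± 0.37 did not pass (edgeR adjusted p = 0.061), though it passed under 7 of 14 alternatives, such as 1.76 with the term for the 6 libraries (adjusted p = 3.1e-06, the lowest of a range that reached 0.43). The WT gates did not pass (log2 -0.40 ± 0.32, edgeR adjusted p = 0.27), though mTEChi was called lower under 2 of 12 alternatives (log2 down to -0.58, adjusted p of 0.0044 to 0.88). In KO, mTEChi was lower by -5.33 ± 0.63 (edgeR adjusted p = 3.1e-07), and the interaction was -4.93 ± 0.74 (adjusted p = 5.1e-05). Genes annotated over the same exons, Gm26604 and Gm44408, cover 4.19% of the exonic bases of Ryr1.

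Ckm (ENSMUSG00000030399, chromosome 7, 19404776 to 19422841, forward strand) encodes muscle creatine kinase, which buffers ATP in the fibre. WT mTEClo held 1.15 to 7.80 CPM (median 4.15) and KO mTEClo 14.6, 15.7, 8.04 and 6.07 CPM. WT mTEChi held 4.96 to 10.9 CPM (median 8.999) and KO mTEChi 6.58, 5.32, 5.82 and 6.27 CPM. The KO mTEClo libraries were above the WT ones except for replicate 4, and the KO mTEChi libraries were within the WT range.

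In mTEClo the mean of Ckm was 4.32 ± 2.48 CPM in WT (n = 8) and 11.1 ± 4.75 CPM in KO (n = 4), higher by a log2 change of 1.31 ± 0.33 (edgeR adjusted p = 0.0048). It did not pass with age in the fit (log2 1.33, adjusted p = 0.064) or without replicates 1 and 2 of KO mTEClo (log2 0.75, adjusted p = 0.14), 2 of the 3 alternatives of 14 that ended the call, over a range of 0.00048 to 0.34. In mTEChi the means of 8.78 ± 2.16 CPM (n = 7) and 6.00 ± 0.549 CPM (n = 4) gave a log2 change of -0.47 ± 0.34 that did not pass (edgeR adjusted p = 0.25) and was 0.64 with the term for the 6 libraries (adjusted p = 0.34, 0.053 to 0.39 over the alternatives). The WT gates gave a log2 change of 0.99 ± 0.27 (edgeR adjusted p = 0.0015), a call lost under 1 of 12 alternatives. For the KO gates the change was -0.78 ± 0.36 (edgeR adjusted p = 0.062). The KO gates passed under 2 of 14 alternatives (log2 down to -1.35, adjusted p of 0.0038 to 0.63) and without replicate 3 or replicate 4 of KO mTEClo. The interaction was -1.78 ± 0.45 (edgeR adjusted p = 0.0038) and passed under every alternative. A930016O22Rik covers 15.5% of the exonic bases of Ckm, so part of its counts may belong to that gene.

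**Figure D2:**
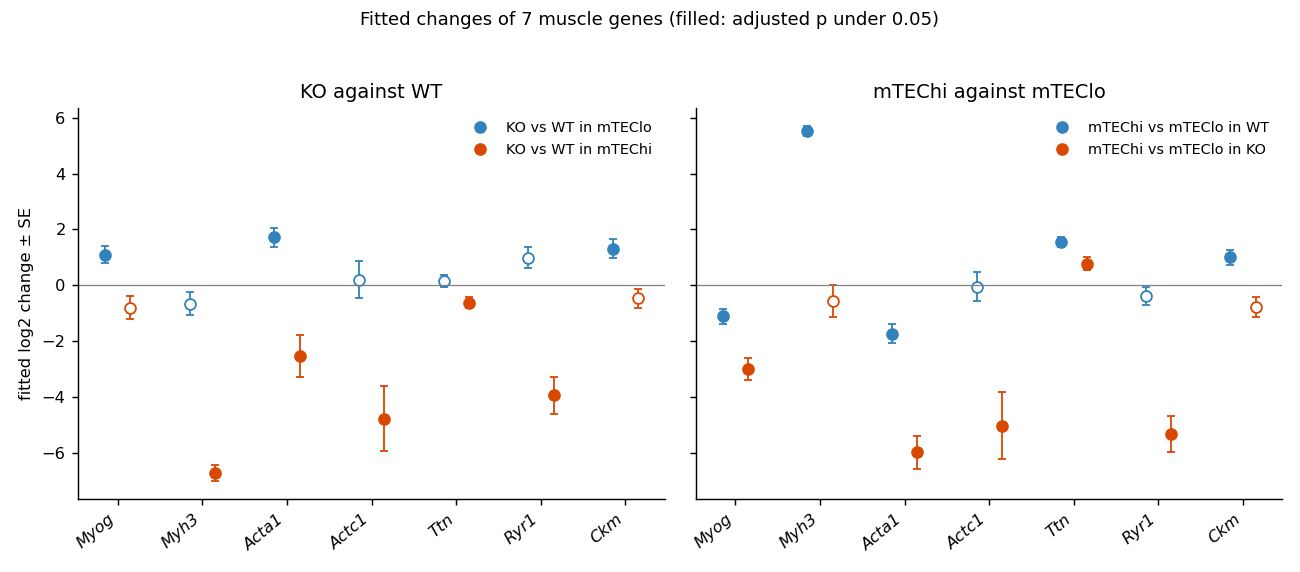
Fitted log2 changes with SE of 7 of the 8 members tested, for KO against WT in each gate (left) and for mTEChi against mTEClo in each genotype (right). Filled points passed at an adjusted p under 0.05. Myh8 is left out because it is listed at 0 in KO mTEChi. Myh3, Acta1, Actc1, Ttn and Ryr1 are called below 0 for KO mTEChi, and Myog, Acta1 and Ckm above 0 for KO mTEClo.

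The term for the 6 libraries without mitochondrial counts takes its estimate from KO mTEClo replicates alone, since no other group held both kinds of library. In KO mTEClo it gave 5 called, the 3 of before with Ttn and Ryr1, all higher. Leaving out replicates 3 and 4 of KO mTEClo also gave those 5.

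Members differed in how the 4 KO mTEClo libraries lay, and these differences were not tested. Against the WT median, replicates 1 and 2 stood at 3.86-fold and 3.04-fold for Myog, 3.60-fold and 3.17-fold for Ryr1, and 3.52-fold and 3.77-fold for Ckm. Replicates 3 and 4 stood at 1.22-fold and 1.15-fold for Myog, at 0.877-fold and 0.735-fold for Ryr1, and at 1.94-fold and 1.46-fold for Ckm. Actc1 was at 2.44-fold and 1.46-fold in replicates 1 and 2 and at 0.204-fold and 0.245-fold in 3 and 4, the latter 2 still within the WT range. Acta1 did not divide in this way, at 5.70-fold, 2.13-fold, 1.51-fold and 3.62-fold in the order of the replicates.

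**Figure D3:**
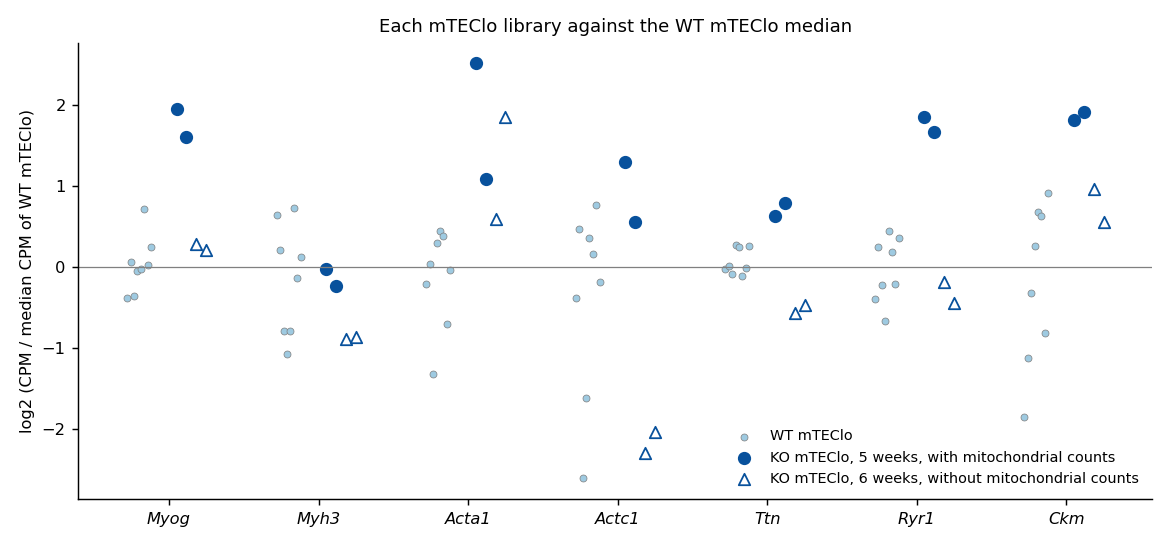
Level of 7 members in each mTEClo library on a log2 scale, divided by the median of the 8 WT mTEClo libraries (small points). KO mTEClo replicates 1 and 2 are filled and replicates 3 and 4 open triangles. The filled points are above all WT points for Myog, Acta1, Ttn, Ryr1 and Ckm, and the triangles are below all WT points only for Ttn.

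Levels of different genes can be set side by side once divided by exon length, if reads cover the exons evenly. That evenness was not tested. In WT mTEChi Ttn led at 21.6 ± 3.05 CPM per kb of exon, followed by Myh3 at 16.6 ± 3.76 and Actc1 at 13.1 ± 4.25, the latter 2 differing by less than their SD. Myog, at 8.25 ± 2.74 CPM per kb, was above Myh8 at 3.49 ± 0.732 and Acta1 at 3.37 ± 1.65. In WT mTEClo Myog led at 18.3 ± 4.78 CPM per kb, ahead of Actc1 at 14.6 ± 8.03 and Acta1 at 11.7 ± 4.06, 3 neighbours that overlap within their SD, while Myh3 stood at 0.364 ± 0.164. By this measure the low gate was led by a regulator and the actins, and the high gate by titin and embryonic myosin.

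In KO mTEClo Myog and Acta1 stood at 40.5 ± 23.6 and 39.1 ± 22.5 CPM per kb. In KO mTEChi Ttn (13.9 ± 2.27 CPM per kb), Myog (4.83 ± 1.39) and Ckm (2.06 ± 0.188) were the 3 highest, and the other members were at or below 1.30 CPM per kb. Dividing by the longest transcript instead moved a level by more than its SD in 4 cases, all in Myh8 or Ryr1, such as Myh8 in WT mTEChi at 6.68 CPM per kb.

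**Figure D4:**
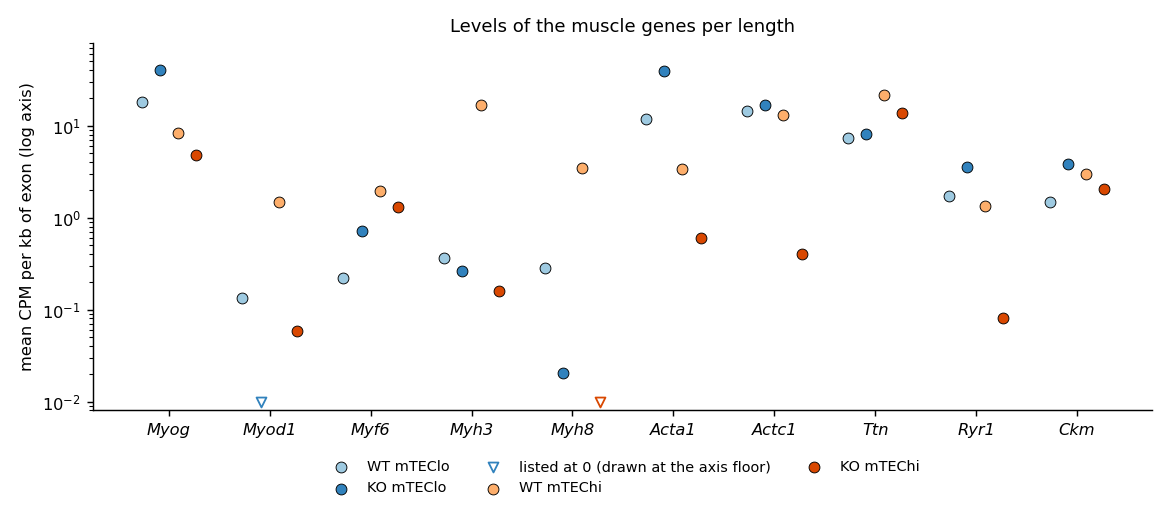
Mean CPM per kb of exon of the 10 genes in the 4 groups, on a log axis, with open triangles for groups listed at 0. Myog and the actins stand high in mTEClo of both genotypes, Ttn and Myh3 are highest in WT mTEChi, and in KO mTEChi only Ttn, Myog, Ckm and Myf6 are above 1 CPM per kb.

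The other genes of the muscle programme were read from 7 lists, which hold 96 genes besides the members, 82 of them tested. Their counts are to be read against the shares of all genes given above, which were 28.0% lower and 25.7% higher in KO mTEChi and 9.69% lower and 12.0% higher in KO mTEClo, and a list count near them says nothing about that list. In KO mTEChi 40 fell and 12 rose, with a median log2 change of -0.49 against -0.01 over all genes. In KO mTEClo 18 rose and 0 fell, with a median of 0.37 against 0.01. There edgeR gave 26 higher and 3 lower at an unadjusted p under 0.05, and DESeq2 gave 18 and 0. In WT, 51 were higher in mTEChi and 21 lower (median 1.42, against 0.00 over all genes). The interaction was negative for 33 and positive for 3, with a median of -0.92 against -0.02. With the term for the 6 libraries, the 7 lists with their members had 16 lower and 12 higher in KO mTEChi in place of 46 and 12, and 3 lower and 28 higher in KO mTEClo in place of 0 and 21. By list, KO mTEChi then had 2 lower and 3 higher regulators, 7 and 0 thick filament genes, 3 and 0 thin filament genes, 1 and 4 Z disc genes, 2 and 2 coupling genes, 1 and 0 energy genes, and 0 and 3 receptor subunits.

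**Figure D5:**
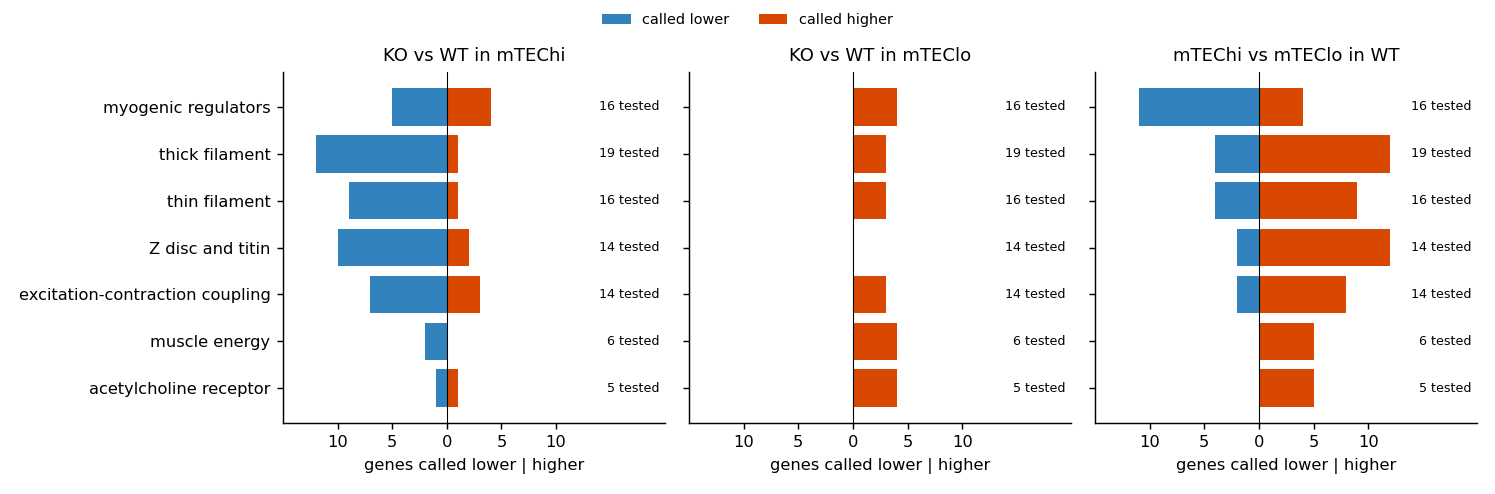
Number of genes called lower (left of 0) and higher (right of 0) in each of the 7 muscle lists, members included, for KO against WT in mTEChi and in mTEClo and for the gates in WT. Thick filament, thin filament and Z disc genes are mostly called lower in KO mTEChi and higher in WT mTEChi than in WT mTEClo, and the regulators are mostly lower in WT mTEChi.

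Among the 16 tested myogenic regulators, 5 fell and 4 rose in KO mTEChi (median -0.18), near the shares of all genes. Pax3, a factor of muscle precursors, fell by -2.48 on the log2 scale (edgeR adjusted p = 4.6e-06), and Mymk, which encodes the fusion protein myomaker, by -2.43 (adjusted p = 1.7e-05), a call that ended with the term for the 6 libraries (log2 -2.34, adjusted p = 0.12). Msc, a repressor of the basic helix-loop-helix family, rose by 1.13 (edgeR adjusted p = 1.2e-06). In KO mTEClo 4 rose and 0 fell of the 16 (edgeR unadjusted 6 and 1, DESeq2 4 and 0), among them Six4 by 0.37 and Mef2d by 0.28 on the log2 scale. In WT, 11 were lower in mTEChi and 4 higher. Id1, an inhibitor of these factors, was lower by -3.56 on the log2 scale and Eya1, a transcriptional coactivator, by -2.23.

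Thick filament genes had the lowest median of the 7 lists in KO mTEChi (-1.88), where 12 of 19 tested fell and 1 rose. Myh13, the myosin heavy chain of extraocular muscle, went from 38.9 ± 11.8 to 1.61 ± 1.11 CPM (log2 -4.57, edgeR adjusted p = 5.5e-11). Myom1, which crosslinks the thick filaments, went from 17.0 ± 2.42 to 1.25 ± 0.669 CPM (log2 -3.74, edgeR adjusted p = 6.4e-11), and the atrial light chain Myl4 from 14.3 ± 5.34 to 1.65 ± 0.704 CPM (log2 -3.13, adjusted p = 4.4e-08). The gene that rose was the fast myosin Myh4 (picked after its value was known), from 64.8 ± 7.74 to 116 ± 22.8 CPM (log2 0.96, edgeR adjusted p = 0.034), while DESeq2 called 0 higher and the term for the 6 libraries ended the call (log2 0.49, adjusted p = 0.79). In KO mTEClo 3 of 19 rose and 0 fell (edgeR unadjusted 3 and 2, DESeq2 3 and 0), namely Mybpc2 (1.07), Mybpc1 (0.86) and Myl1 (1.19), which encode 2 myosin-binding proteins and an alkali light chain.

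Thin filament genes had 9 of 16 lower and 1 higher in KO mTEChi (median -0.82). The slow troponins Tnni1 and Tnnt1 fell by -1.65 (edgeR adjusted p = 3.3e-06) and -3.04 (adjusted p = 2.5e-05) on the log2 scale, and with the term Tnnt1 was at -1.25 and did not pass (adjusted p = 0.37). Tnnt2, the cardiac and embryonic troponin T, stood at 233 ± 22.8 CPM in WT mTEChi and 243 ± 13.3 CPM in KO, and did not pass there (log2 0.01, adjusted p = 0.93). In mTEClo Tnnt2 rose from 18.3 ± 5.19 to 39.5 ± 6.94 CPM (log2 1.08, edgeR adjusted p = 7.6e-06), with 48.2, 36.3, 41.4 and 32.05 CPM in the 4 KO libraries. Of the 16 genes, 3 rose and 0 fell in KO mTEClo (edgeR unadjusted 3 and 0, DESeq2 3 and 0).

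Z disc genes had 10 of 14 lower and 2 higher in KO mTEChi (median -1.80). Smyd1, a methyltransferase of muscle that is needed to build sarcomeres, ran from 21.5 to 35.7 CPM in WT mTEChi and was listed at 0 in all 4 KO mTEChi libraries, at least 86.6-fold lower (edgeR adjusted p = 1.5e-11). In KO mTEClo Smyd1 stood at 5.95, 2.51, 8.34 and 5.10 CPM. Des, the intermediate filament desmin, and Myot, the Z disc protein myotilin, rose in KO mTEChi, from 29.2 ± 5.85 to 85.7 ± 22.4 CPM and from 14.5 ± 4.12 to 44.4 ± 9.92 CPM (edgeR adjusted p = 3.5e-07 and 2e-06), and with the term Myot was at 1.63 on the log2 scale and did not pass (adjusted p = 0.23). In KO mTEClo 0 of the 14 passed (edgeR unadjusted 1 higher and 1 lower, DESeq2 0 and 0), and with the term for the 6 libraries 4 were higher.

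Of the excitation-contraction coupling genes, 7 of 14 were lower and 3 higher in KO mTEChi (median -0.49). Cacna1s, the voltage sensor that acts on Ryr1, fell from 14.3 ± 4.98 to 0.860 ± 0.620 CPM (log2 -4.08, edgeR adjusted p = 2.2e-08). Jph1, which holds the membranes of that junction together, instead rose from 254 ± 11.2 to 578 ± 26.0 CPM in mTEChi (log2 1.19, edgeR adjusted p = 8.2e-13), and Trdn, the triadin of the junction, rose by 1.18 (adjusted p = 0.00024). With the term neither Cacna1s (log2 -2.28, edgeR adjusted p = 0.51) nor Trdn (log2 0.42, adjusted p = 0.73) passed. Jph1 rose in mTEClo too, from 93.1 ± 4.88 to 169 ± 19.7 CPM (log2 0.86, edgeR adjusted p = 6.6e-09), with all 4 KO libraries between 146 and 188 CPM. In KO mTEClo 3 of 14 rose and 0 fell (edgeR unadjusted 8 and 0, DESeq2 4 and 0), the other 2 being the calcium buffer Pvalb (1.22) and Sln (1.36), a regulator of the calcium pump, which did not pass with the term (log2 1.42, adjusted p = 0.11).

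Genes of energy supply had 2 of 6 lower and 0 higher in KO mTEChi (edgeR unadjusted 2 and 0, DESeq2 2 and 0). These were Pygm, the glycogen phosphorylase of muscle (log2 -1.43, edgeR adjusted p = 5.6e-05), and Ampd1 (log2 -1.83, adjusted p = 0.00012), an enzyme of purine metabolism. Neither passed with the term for the 6 libraries, at -0.87 for Pygm (edgeR adjusted p = 0.21) and -1.45 for Ampd1 (adjusted p = 0.38). In KO mTEClo 4 of 6 rose and 0 fell (edgeR unadjusted 5 and 0, DESeq2 4 and 0), Ckm with Cox8b (2.63), Pygm (1.47) and Eno3 (0.56). Pygm thus fell in one gate and rose in the other, with an interaction of -2.90 (edgeR adjusted p = 9e-06).

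The 5 subunit genes of the muscle acetylcholine receptor were all measured. All 5 were higher in mTEChi than in mTEClo in WT (median log2 2.46). In KO mTEChi Chrna1 fell from 22.1 ± 4.02 to 6.02 ± 0.897 CPM (log2 -1.74, edgeR adjusted p = 1.3e-07) and Chrnb1 rose from 23.5 ± 5.54 to 36.1 ± 6.17 CPM (log2 0.57, adjusted p = 0.0054), and with the term Chrna1 was still negative and did not pass (edgeR adjusted p = 0.069). In KO mTEClo the other subunits rose, Chrnb1 by 0.88, Chrnd by 1.24, Chrng by 1.43 and Chrne by 1.19, and 0 fell (edgeR unadjusted 4 higher and 0 lower, DESeq2 4 and 0). Chrna1 did not pass there (log2 0.45, edgeR adjusted p = 0.23), nor did Chrne with the term (log2 0.57, adjusted p = 0.60).

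Genes whose log2 CPM (prior count 2) were most like those of Myog over the 23 libraries were Smtnl2 (Pearson r = 0.937), Cdk4 (0.932), Engase (0.925), Tubb2b (0.916) and Lgi2 (0.914). The mean of Smtnl2 was 40.5 CPM in WT and 70.6 CPM in KO mTEClo, and 11.0 CPM in WT and 3.13 CPM in KO mTEChi. For Ttn, the structural member with the highest CPM, they were Tfrc (0.963), Stard4 (0.954), Shmt1 (0.951), Arsb (0.949) and Tpx2 (0.949). These coefficients carry the differences between the 4 groups and are given as a description.

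Some markers of other cell types were called in KO as well, in both directions. Counts of these lists are also to be read against the shares of all genes. Those were 28.0% lower and 25.7% higher in KO mTEChi, and 9.69% lower and 12.0% higher in KO mTEClo. A count near them says nothing about that cell type. In KO mTEChi, 7 of 9 tested genes of muscle stem cells and connective tissue fell and 1 rose, and their summed level was 170 to 353 CPM in WT mTEChi against 78.5 to 126 CPM in KO. Within that list, and picked after their values were known, Pax7, the marker of satellite cells, went from 20.8 ± 7.84 to 6.07 ± 1.66 CPM, and Itga7, an integrin of muscle, from 47.7 ± 10.00 to 2.28 ± 1.004 CPM, calls that ended with the term (edgeR adjusted p = 0.19 and 0.075). So did the calls of Cdh15, lower, and Dcn, higher (edgeR adjusted p = 0.67 and 0.094). Of the cardiac muscle list 4 of 6 tested fell, with 127 to 184 CPM in WT mTEChi and 66.7 to 75.7 CPM in KO. Its regulator Nkx2-5, at 0 in KO mTEChi and in mTEClo of both genotypes, was too low to be tested, so no change is claimed. Nppb of this list did not pass with the term (edgeR adjusted p = 0.13). Adult fast fibre genes, which the muscle lists hold too, had 3 lower and 1 higher of 7, at 473 to 559 CPM in WT and 589 to 725 CPM in KO. The lower ones, Pvalb, Tnnt3 and Atp2a1, did not pass with the term (edgeR adjusted p = 0.26, 0.17 and 0.13). Smooth muscle and pericyte genes had 3 lower and 0 higher of 8 (edgeR unadjusted 3 and 0, DESeq2 3 and 0), at 830 to 1034 CPM in WT and 781 to 912 CPM in KO. Of the lower ones, Cnn1 and Actg2 did not pass with the term (edgeR adjusted p = 0.061 and 0.64).

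Thymocyte genes had 4 lower and 0 higher of 5 in KO mTEChi (edgeR unadjusted and DESeq2 also 4 and 0), at 66.4 to 83.6 CPM in WT and 39.4 to 51.2 CPM in KO. With the term for the 6 libraries, Cd3g and Rag1 of these did not pass (edgeR adjusted p = 0.49 and 0.7). Dendritic cell and macrophage genes had 4 lower and 2 higher of 6, with a summed level of 272 to 343 CPM in WT and 355 to 411 CPM in KO. The 4 lower ones, Itgax, Adgre1, Csf1r and Cx3cr1, did not pass with the term (edgeR adjusted p = 0.68, 0.095, 0.76 and 0.91). Nor did Lyz2 of the higher ones (adjusted p = 0.28). Endothelial genes had 2 lower and 0 higher of 4 (edgeR unadjusted and DESeq2 also 2 and 0), at 58.9 to 87.5 CPM in WT and 44.2 to 68.1 CPM in KO. Of the lower ones, Cdh5 did not pass with the term, and Plvap did (edgeR adjusted p = 0.0096). The antigens gated out by the sort, Ptprc (CD45) and Enpep (Ly51), both fell in KO mTEChi, from a sum of 47.8 to 87.6 CPM to one of 7.10 to 11.0 CPM. In KO mTEClo the stem cell and connective tissue list had 0 lower and 0 higher of 9 (edgeR unadjusted 1 higher, DESeq2 0), at 57.4 to 84.9 CPM in WT and 54.7 to 122 CPM in KO. Dendritic cell and macrophage genes had 2 higher and 0 lower of 6 (edgeR unadjusted and DESeq2 also 2 and 0), and their sums did not overlap, at 34.9 to 64.1 CPM in WT and 106.5 to 139 CPM in KO mTEClo. The genes that rose were Cd68 (log2 1.37, edgeR adjusted p = 1.2e-06) and Lyz2 (log2 1.38, adjusted p = 9.9e-07), both of them used as markers of macrophages. The other 4 genes of that list had negative changes that did not pass (Itgax -1.20, Adgre1 -0.58, Cx3cr1 -0.28 and Csf1r -0.18). Its median log2 change was -0.23. Of the other lists in KO mTEClo, endothelial genes had 2 higher of 4 (32.9 to 60.6 CPM in WT, 47.6 to 89.9 CPM in KO), smooth muscle and pericyte genes 2 higher and 1 lower of 8 (1103 to 1410 against 1101 to 1559 CPM), adult fast fibre genes 1 higher of 7 (142 to 237 against 164 to 370.1 CPM) and thymocyte genes 1 lower of 5 (9.93 to 18.9 against 11.02 to 16.03 CPM). With the term, the endothelial Pecam1 and Tek did not pass (edgeR adjusted p = 0.24 and 0.26). Nor did Rag1 of the thymocyte genes (adjusted p = 0.14), or Pdgfrb and Rgs5 of the smooth muscle list (0.13 and 0.44). Cardiac genes had 1 lower of 6 there, and the sums overlapped at 30.0 to 47.1 CPM and 29.2 to 36.3 CPM. The part of these other cell types in the results on the members was not tested.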

How the data were processed

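Total RNA of 23 sorted mTEC libraries had been primed with oligo dT and selected random primers and tagmented with Tn5, without a step that marks strand, per the labels' protocols. The authors' deposited table holds raw counts per gene. The submitters' processing notes name HTSeq 0.11.2, STAR 2.7.3a, Picard 2.21.1, fastp 0.20.0, SAMtools 1.9 and edgeR and the builds mm10 and GRCm38, without their roles. How reads shared by genes were counted is not given in the sources used here.

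Here edgeR 4.0.16 (R 4.3.3) fitted all 23 libraries at once with terms for group and sex, after filterByExpr (minimum count 10) and TMM scaling. Quasi-likelihood tests were robust, and p-values were adjusted over 19310 genes. The script was tested on simulated data. Members below the filter were compared by exact permutation.

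The 10 members and the gene lists were chosen with earlier results of these data known. Most genes named from the muscle lists are among the 4 of each list per comparison called with the smallest p. Not all of those 4 are named. Exceptions such as Myh4, and genes of the marker lists such as Pax7, Itga7, Cd68 and Lyz2, were named outside that rule. The 5 genes most like Myog and like Ttn are given as well. Positions and exon lengths came from GENCODE of GRCm38, promoters from RefSeq of GRCm38.p6. Libraries of a group differed beyond sampling noise. Same-numbered KO libraries of the 2 gates, which also share an age, deviated together in all 4 pairs (r of 0.139 to 0.222), while no pair of another comparison exceeded 0.1. Alternatives were other scaling (RLE), no filter, DESeq2 1.42.0, other terms (none for sex, age, replicate block), subsets of libraries, stricter calls, each library left out, and, chosen after seeing the data, a term for or the removal of libraries without mitochondrial counts.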

Additional observations from a re-analysis of the deposited data

Results flagged for a closer look

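The KO effect differed between the gates, by the interaction test of edgeR, for 7 members. The log2 differences, mTEChi minus mTEClo, were -6.07 for Myh3, -4.99 for Actc1, -4.93 for Ryr1, -4.25 for Acta1, -1.89 for Myog, -1.78 for Ckm and -0.78 for Ttn. Those of Actc1 and Ttn were lost under 4 and 7 of 13 alternatives, and that of Ttn had the opposite sign under 1 more.

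Of 38 series of a member in a group of 4 to 10 libraries, 3 held a library far from the others, where chance marks about 1 in 20. Where all other libraries are at 0 any count stands apart, so that share does not hold for such a series. Myod1 in KO mTEChi replicate 1 was at 0.439 CPM, from 1 count, and the other 3 libraries were at 0. Myh8 in KO mTEClo replicate 4 was at 0.971 CPM with the others at 0, and Myh8 in WT mTEChi replicate 6 was at 59.4 CPM, above 32.7 to 42.5 CPM in the other 6.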

How the results depend on the processing

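With a term for the 6 libraries without mitochondrial counts, the number of members called was 3 in place of 6 for KO mTEChi and 5 in place of 3 for KO mTEClo. It was 5 too for KO mTEClo without its libraries that lack those counts, a fit that rests on the same KO mTEClo libraries and is no separate check. Ttn turned to 0.61 for KO mTEChi with the term, to -0.57 for KO mTEClo and to 0.09 for the interaction without the 6 libraries under 2000000 counts, and to -0.58 for KO mTEClo without its libraries that have mitochondrial counts. The cause was not tested. Leaving out 1 library gave 5 to 6 members called for KO mTEChi, 2 to 4 for KO mTEClo, 6 to 6 for the gates in WT, 5 to 6 for the gates in KO and 6 to 7 for the interaction. The fit with a replicate block changed no count of members called by over 1.5 times, and with it Ryr1 passed in KO mTEClo (0.92) and the interaction of Ttn did not (-0.72). Over all alternatives and left-out libraries, 996 values of members kept their side of the threshold, 46 lost a call, 22 gained one and 4 turned. A value that did not pass could change sign and still be among the 996. Those of Myog and Ckm for KO mTEChi with the term did so. Depth limits Myod1, Myf6 and Myh8, which were at or near the floor in several groups.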
